A study of Homo sapiens with 6 samples.

Results

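MAP kinase (mitogen-activated protein kinase) cascade genes and dual-specificity phosphatase genes were examined in AGS, a cell line from a human gastric adenocarcinoma. They were taken as the rows of the deposited gene table whose symbol is MAPK, MAP2K, MAP3K, MAP4K or DUSP followed by a number. The rule found 5 of the 1099 genes in the table: MAP2K6, MAP3K6, DUSP1, DUSP4 and DUSP14. Human gene symbols hold 67 names of this form, and the other 62 have no row, so that they were not analysed here. No MAPK or MAP4K gene is among the 5. The study labels 3 libraries as vehicle and 3 as SSD (saikosaponin D, a triterpene saponin of Radix Bupleuri), all of polyA RNA from AGS cells of wild-type genotype. The treatment field of the labels gives 10 μM for 24 h under a compound code that it does not equate with SSD, the growth field names another cell line, and the study's methods state another dose. The dose is therefore not settled, and the treated columns were matched to SSD as the only treated group. The methods speak in general of independent experiments, but the labels do not say that the sequenced replicates are separate cultures. The spread between them may therefore be technical, and all 6 libraries come from 1 line.

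The table is itself a choice made on the outcome: all 1099 rows have a deposited p-value under 0.05 from the authors' own comparison of these 6 libraries. The members were thus selected on the same SSD-against-vehicle difference in these libraries. A member is present only because it differed, and the differences below are a description with no p-value. Where a member is said to be called, the call repeats the contrast that selected it and supports nothing. Of the markers looked up for the labelled cell type, the table held CDH17 and TFF1 of 13 epithelial and gastric genes. It held 0 of 7 prostate genes, COL1A1 of 5 fibroblast genes and 0 of 4 blood cell genes, and a gene with no row has no value here. The listed genes summed to between 3084337 and 4640114 estimated counts per library and to 30.1% to 33.1% of each library's TPM (a share of transcripts corrected for gene length and scaled to one fixed total per library). These sums cover part of a library and are not its depth. In RNA from a whole culture, fewer cells of a kind and less RNA per cell cannot be told apart.

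MAP kinase signaling passes through a relay of kinases, in which a MAP3K phosphorylates a MAP2K and the MAP2K phosphorylates a MAP kinase on a threonine and a tyrosine of its activation loop. Dual-specificity phosphatases remove these phosphates, and several of their genes are induced by the same cascades, which makes them feedback inhibitors. In epithelial cancers the ERK branch is mostly linked to growth factor signals, and the p38 and JNK branches to stress.

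Of the 5 members, the 2 kinase genes had higher and the 3 phosphatase genes lower levels under SSD. MAP2K6 was 1.70-fold and MAP3K6 1.73-fold higher in mean TPM, and DUSP1, DUSP4 and DUSP14 were 1.48-fold, 1.24-fold and 1.15-fold lower. In TPM no member overlapped between the groups, and neither did 76.4% of all table genes, 32.2% with higher and 44.2% with lower levels under SSD. Both epithelial and gastric markers were also lower under SSD without overlap. TFF1, a secreted peptide of gastric mucus cells, had 70.0 to 81.5 TPM with vehicle and 33.3 to 53.5 TPM with SSD, a log2 difference of -0.75 from the counts. CDH17, an intestinal cadherin, had 44.2 to 48.0 TPM with vehicle and 33.6 to 38.0 TPM with SSD, a log2 difference of -0.35. The fibroblast marker COL1A1 had 12.8 to 15.8 and 10.0 to 14.9 TPM, with overlap, and a log2 difference of -0.25. The part of these markers in the members' differences was not tested.

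The promoters of the members with the largest differences are shown because these genes moved in opposite directions. They are the 250 bases before the start of transcription in RefSeq (GRCh38.p14). Promoters of 4 of the 5 members were read. DUSP4 was left out of the search, so that nothing is said here of its promoter. Both strands were searched for 5 motifs. The cyclic AMP response element was spelled TGACGTCA. The AP-1 site was spelled TGACTCA. The E-box, a core bound by Myc and other factors, was spelled CACGTG. The TATA box was spelled TATAAA. The GC box was spelled GGGCGG. Capitals mark matches of the first 4 of these, none of which overlap each other.
DUSP1 (chr5:172771196-172771445, minus strand): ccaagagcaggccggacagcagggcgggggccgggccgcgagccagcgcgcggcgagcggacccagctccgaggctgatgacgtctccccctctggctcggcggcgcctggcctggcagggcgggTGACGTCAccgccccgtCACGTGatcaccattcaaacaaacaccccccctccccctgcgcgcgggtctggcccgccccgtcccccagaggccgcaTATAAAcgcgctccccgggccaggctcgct
MAP2K6 (chr17:69414447-69414696, plus strand): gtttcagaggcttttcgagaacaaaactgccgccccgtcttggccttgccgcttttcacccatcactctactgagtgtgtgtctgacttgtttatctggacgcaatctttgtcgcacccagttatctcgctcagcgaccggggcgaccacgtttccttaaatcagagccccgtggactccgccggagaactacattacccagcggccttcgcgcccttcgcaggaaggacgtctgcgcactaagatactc
MAP3K6 (chr1:27366962-27367211, minus strand): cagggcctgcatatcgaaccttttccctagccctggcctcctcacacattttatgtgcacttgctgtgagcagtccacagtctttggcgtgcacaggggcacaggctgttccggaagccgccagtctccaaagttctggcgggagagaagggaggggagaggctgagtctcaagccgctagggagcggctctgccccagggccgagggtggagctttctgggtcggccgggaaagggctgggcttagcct
In the DUSP1 window TGACGTCA lay 125 to 118 bases before the start, CACGTG 108 to 103 bases and TATAAA 30 to 25 bases before it, and GGGCGG occurred 4 times. Over all 35116 promoter windows of this length, 1.65% held TGACGTCA, 6.34% CACGTG, 10.7% TATAAA, 4.2% TGACTCA and 42.6% GGGCGG. The first MAP2K6 window and the MAP3K6 window held none of the 4 capitalised motifs, and GGGCGG occurred 1 and 0 times in them. A second MAP2K6 window, at an internal start, held TATAAA on the reverse strand 2 times, and the DUSP14 window held GGGCGG 5 times and no other motif. The G and C share was 74.4% in DUSP1, 82.8% in DUSP14, 62.0% in MAP3K6, and 55.6% and 43.2% in the MAP2K6 windows, against a median of 58.0% over all windows. A match is a description of letters and not of a bound factor.

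MAP2K6 (ENSG00000108984) encodes the MAP kinase kinase also called MKK6, which activates p38 MAP kinases. The gene spans bases 69414698 to 69553861 of chromosome 17, plus strand (GRCh38, GENCODE release 29). Vehicle replicates 1 to 3 had 6.02, 5.22 and 6.61 TPM, and SSD replicates 1 to 3 had 7.84, 9.08 and 13.4 TPM. All SSD libraries lay above all vehicle libraries, and SSD replicate 3 stood apart at the top. The means were 5.95 ± 0.698 TPM (SD, n = 3) and 10.1 ± 2.90 TPM (SD, n = 3). The estimated counts were 132, 146 and 137 under vehicle and 163, 197 and 259 under SSD, a mean of 172 per library. The counts gave a log2 fold change of 0.85 (standard error 0.183), the value of rank 4 from the top among the 1099 genes. Of the 6 fits that omitted a single library, the lowest value was 0.62 (without SSD replicate 3) and the highest 1.01 (without SSD replicate 1).

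MAP3K6 (ENSG00000142733) encodes the MAP kinase kinase kinase also called ASK2, a stress-responsive relative of ASK1, with which it forms complexes. The gene spans bases 27355184 to 27366892 of chromosome 1, minus strand. Its level was 3.44, 2.88 and 2.36 TPM with vehicle against 5.63, 3.82 and 5.60 TPM with SSD. The lowest SSD library, replicate 2, lay just above the highest vehicle library, replicate 1. The means were 2.89 ± 0.540 TPM (SD, n = 3) and 5.02 ± 1.04 TPM (SD, n = 3). The counts were 125, 144 and 111 under vehicle and 181, 141 and 158 under SSD. Before scaling, the count of SSD replicate 2 was below that of vehicle replicate 2, which is the library with the largest total. After division by a factor for library scale the counts were 130, 112 and 104 under vehicle and 196, 151 and 181 under SSD, with no overlap. The counts gave a log2 fold change of 0.61 (standard error 0.145), and omitting any single library moved it to between 0.53 and 0.71.

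**Figure D1:**
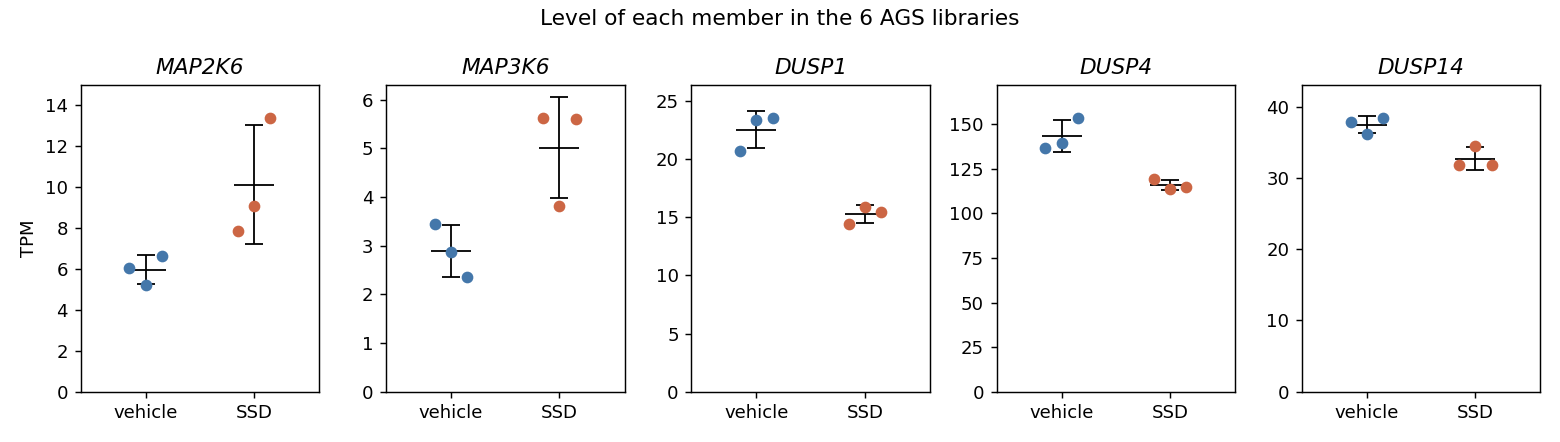
Level of the 5 genes in TPM (vertical axes, each from 0) in the 3 vehicle and 3 SSD libraries, with points for libraries, a horizontal mark for the mean and bars for the SD. The 2 kinase genes are higher and the 3 phosphatase genes lower in every SSD library than in any vehicle library, and MAP2K6 has one SSD library, at 13.4 TPM, well above the others.

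DUSP1 (ENSG00000120129) encodes a nuclear phosphatase that acts on p38, JNK and ERK, and its gene is quickly induced by growth factors and stress. The gene spans bases 172768090 to 172771195 of chromosome 5, minus strand, next to the promoter printed above. Its level was 20.7, 23.4 and 23.6 TPM with vehicle against 14.4, 15.9 and 15.5 TPM with SSD. The SSD libraries lay close together and all below the vehicle libraries, of which replicate 1 was the lowest. The means were 22.5 ± 1.61 TPM (SD, n = 3) and 15.3 ± 0.784 TPM (SD, n = 3). From a mean of 422 counts per library the log2 fold change was -0.56 (standard error 0.0870), rank 55 from the bottom of the 1099 genes. Omitting any single library moved it to between -0.62 and -0.52.

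DUSP4 (ENSG00000120875) encodes a nuclear phosphatase of the same subfamily, which acts on ERK and JNK and is induced by ERK signaling. Its locus is bases 29333064 to 29350668 of chromosome 8, minus strand. It had the highest level of the members, at 137, 140 and 154 TPM with vehicle against 119, 114 and 115 TPM with SSD. The groups did not overlap, and vehicle replicate 3 was the highest of the 6 libraries. The means were 143 ± 9.03 TPM (SD, n = 3) and 116 ± 2.99 TPM (SD, n = 3). From a mean of 8639 counts per library the log2 fold change was -0.30 (standard error 0.0520), and between -0.33 and -0.24 when any single library was omitted.

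DUSP14 (ENSG00000276023) encodes a small phosphatase that lacks the MAP kinase docking domain of the other two. Its locus is bases 37489831 to 37513501 of chromosome 17, plus strand. Its level was 37.8, 36.1 and 38.4 TPM with vehicle against 31.8, 34.5 and 31.8 TPM with SSD. The groups did not overlap, but SSD replicate 2 lay just below vehicle replicate 2. The means were 37.4 ± 1.20 TPM (SD, n = 3) and 32.7 ± 1.57 TPM (SD, n = 3). The log2 fold change from a mean of 533 counts was -0.20 (standard error 0.0725), close to the median of all 1099 genes, which was -0.14.

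Levels were ordered alike in all 6 libraries, with DUSP4 highest, then DUSP14, DUSP1, MAP2K6 and MAP3K6. In TPM, no neighbours in this order overlapped within either group. In the ranking of the 1099 genes by mean vehicle TPM the members stood at 311, 660, 819, 1035 and 1090, so that both kinase genes were near the bottom. The ratio of DUSP1 to MAP2K6 within a library does not depend on the scale between libraries. In TPM it was 3.44, 4.48 and 3.56 under vehicle and 1.84, 1.75 and 1.16 under SSD, with means of 3.83 ± 0.569 and 1.58 ± 0.371 (SD, n = 3 each). This ratio pairs the members with the lowest and the highest log2 fold change. Both were selected on this contrast, so that the lower ratio under SSD is built in and supports nothing. The ratio of MAP2K6 to MAP3K6 was 2.12 ± 0.590 under vehicle and 2.05 ± 0.571 under SSD (SD, n = 3 each), and its values overlapped between the groups. Relative spread between libraries was wider in the kinase genes, at 11.7% to 28.7% of the mean, than in the phosphatase genes, at 2.58% to 7.14%. MAP2K6 and MAP3K6 also had fewer counts, with means of 172 and 143 per library. The means were 422, 8639 and 533 for DUSP1, DUSP4 and DUSP14. The part of count depth in the spread was not tested.

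The 5 genes were next read against the whole table. To place them there, counts were fitted across all 1099 genes with edgeR's quasi-likelihood test on a library scale that reflects all genes, and calls were made at an adjusted p under 0.05. All 5 members were called, 2 higher and 3 lower, whereas 35.2% of the table's genes were called higher and 52.8% lower, 88% in all. As every one of the 387 table genes with a positive log2 fold change was called, being called higher sets the kinase genes apart from nothing else on that side. With the adjustment widened to 20000 genes, as though the rest of the genome had been tested with larger p, MAP2K6, DUSP1 and DUSP4 were called, against 45.4% of the table, 30.7% higher and 14.7% lower. DUSP14 was lost there and also when vehicle replicate 1, vehicle replicate 3 or SSD replicate 1 was omitted, with a log2 fold change of -0.19, -0.18 and -0.18.

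**Figure D2:**
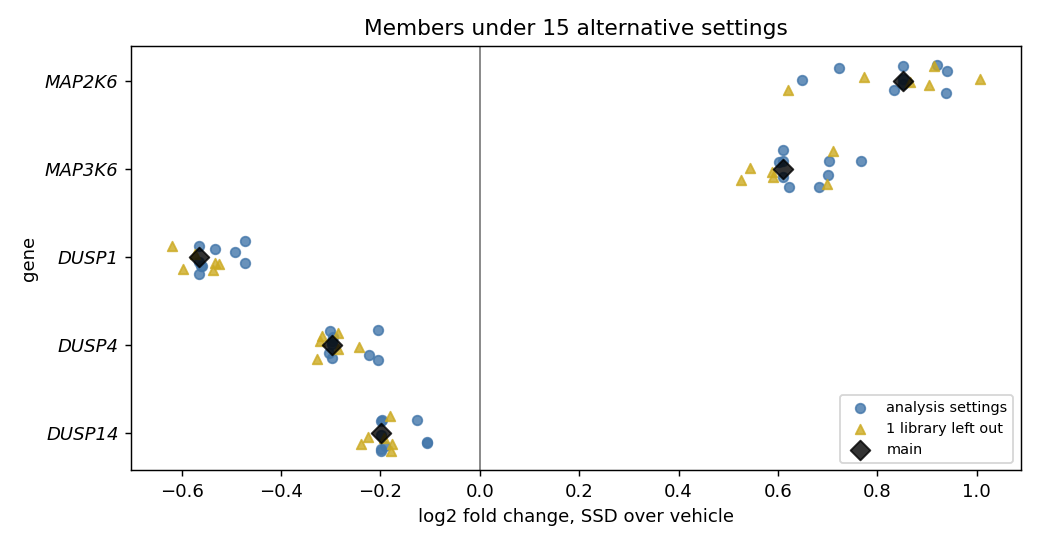
Log2 fold change of SSD over vehicle (horizontal axis) for the 5 genes under the reported settings (diamonds), 9 other analysis settings (circles) and 6 fits with 1 library left out (triangles). No gene changes sign, and MAP2K6 spreads the most, from 0.62 to 1.01.

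Protein domains in the table's annotation split the members as their names do. MAP2K6 and MAP3K6 share the protein kinase domain, and MAP3K6 also carries a TRAF-binding and a pleckstrin homology domain typical of the ASK family. DUSP1, DUSP4 and DUSP14 share the dual-specificity catalytic domain, and DUSP1 and DUSP4 also have a rhodanese-like domain, which in these phosphatases contacts the MAP kinase. In the gene ontology terms of the table, MAP kinase tyrosine/serine/threonine phosphatase activity was assigned to 3 genes, which were DUSP1, DUSP4 and DUSP14. Inactivation of MAPK activity was assigned to 2 genes, DUSP1 and DUSP4. Thus every table gene with these 2 terms is a member and was lower under SSD, as were 712 of all 1099 genes by log2 fold change. Wider terms reached beyond the members. Protein tyrosine phosphatase activity was assigned to 9 table genes, and negative regulation of the ERK1 and ERK2 cascade to 6. No exon of another gene overlapped the exons of a member in GENCODE, and no named pseudogene copy of a member was listed.

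Other genes of the cascade came from 7 lists with 128 genes, of which 13 had a row. Of these 13, 2 were called higher, 8 lower and 3 were not called, against 35.2% and 52.8% of the table called higher and lower, and their median log2 fold change was -0.14, as over all 1099 genes, PHLDA1 being the middle gene in both. In TPM, 2 of the 13 lay above and 7 below the vehicle libraries without overlap, and 4 overlapped. Of all table genes, 32.2% lay above and 44.2% below without overlap, so that the 13 genes do not stand out. Among 21 adaptors, RAS and RAF proteins the table held SOS2 and RASA1, both higher. SOS2, an exchange factor that loads RAS with GTP, had 24.5, 23.1 and 22.1 TPM with vehicle against 26.8, 29.9 and 33.3 TPM with SSD, a log2 fold change of 0.38 (standard error 0.0744). RASA1, a GTPase-activating protein that switches RAS off, had 27.9, 27.0 and 26.3 TPM against 30.9, 34.8 and 37.0 TPM, a log2 fold change of 0.34 (standard error 0.0600). The 2 genes thus have opposite known actions on RAS and moved in the same direction, each with SSD replicate 3 the highest, as in MAP2K6.

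Among 26 transcription factors and immediate targets of the cascade the table held 6 genes, all with a negative log2 fold change, of which 4 were called lower. Of all 1099 genes, 712 had a negative log2 fold change and 52.8% were called lower. CCND1, which encodes the cyclin that drives entry into the cell cycle, had 413, 418 and 450 TPM with vehicle against 351, 336 and 333 TPM with SSD, and its log2 fold change was -0.31 (standard error 0.0486). MYC was at -0.28 (standard error 0.0680), IER3, an immediate early gene, at -0.21 (standard error 0.0574), and FOSL1, a subunit of AP-1, at -0.20 (standard error 0.0627). With adjustment over 20000 genes the call of CCND1 held, and those of MYC, IER3 and FOSL1 were lost. The study itself reported no significant effect of SSD on Myc mRNA by RNA-seq or RT-qPCR. MYC nevertheless has a row here, and every row has a deposited p-value under 0.05 from the authors' own comparison. Its level was 204, 227 and 224 TPM with vehicle against 193, 191 and 158 TPM with SSD, without overlap. The call of MYC held under 14 of 15 alternatives, and it repeats the contrast that selected the gene. The uncalled 2 were PHLDA1 at -0.14, whose TPM overlapped between the groups, and SRF, the serum response factor, at -0.12. Of 16 feedback inhibitors and other phosphatases the table held SPRY4, an inhibitor of receptor signaling to RAS, and ERRFI1, an inhibitor of the EGF receptor. SPRY4 had 15.8, 16.1 and 16.3 TPM with vehicle against 13.4, 14.4 and 14.5 TPM with SSD, a log2 fold change of -0.17 (standard error 0.0619), and was called. ERRFI1 was at -0.10 (standard error 0.0569) with overlapping groups and was not called.

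The remaining lists gave 1 gene each or none. TGFA, a ligand of the EGF receptor and the only one of 20 ligands and receptors with a row, was at -0.21 (standard error 0.0609), and its TPM overlapped between the groups. TXN, thioredoxin, which binds and inhibits ASK1, was the only one of 19 stress inputs to MAP3Ks and was at -0.13 (standard error 0.0524), also with overlap in TPM. SPAG9, a scaffold of JNK and p38 signaling, was the only one of 14 scaffolds and was at -0.13 (standard error 0.0432). Of 12 genes for kinases activated by MAP kinases and a substrate, 0 had a row. The calls of TGFA, TXN, SPAG9, FOSL1 and SPRY4 were lost with TMM scaling of the table, as was that of DUSP14.

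**Figure D3:**
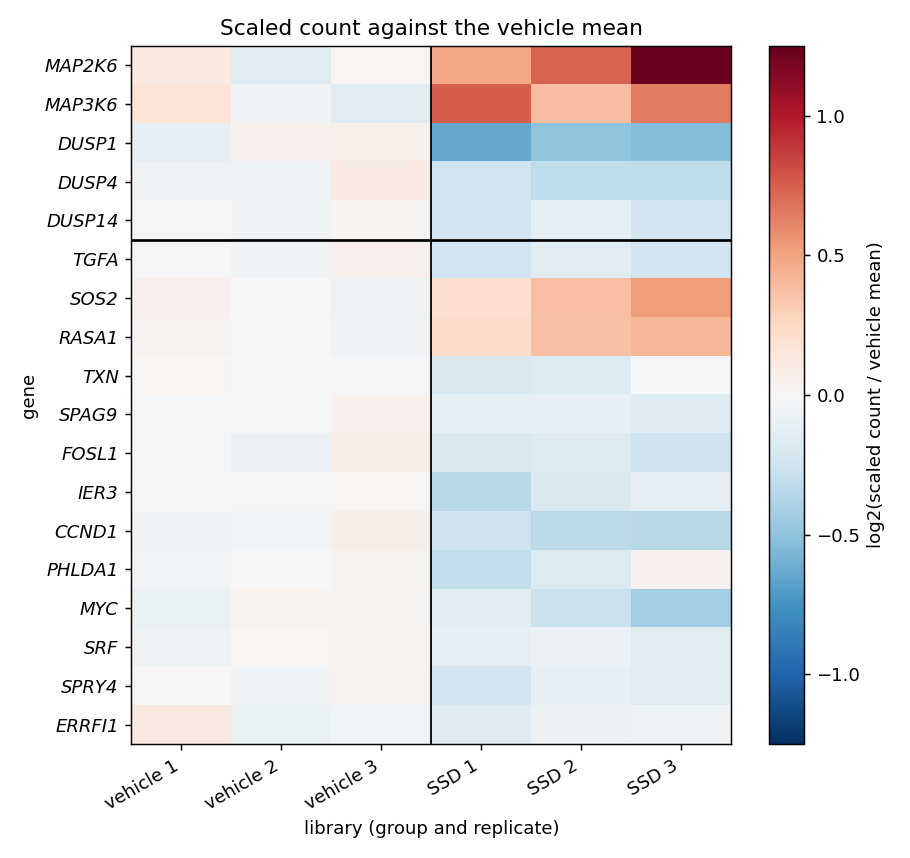
Log2 ratio of each library's scaled count to the vehicle mean (colour, red above and blue below) for the 5 members (above the line) and 13 pathway genes, by library. MAP2K6, MAP3K6, SOS2 and RASA1 are red in all 3 SSD libraries, and the other genes are blue or near white there except PHLDA1, which is faintly red in SSD replicate 3.

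The table's own annotation places 18 genes in the MAPK signaling pathway of KEGG, among them 4 members, DUSP14 being the exception. This list was taken after the table was seen. Beside members and listed genes it adds 9, of which 2 were called higher, 6 lower and 1 was not called, with a median log2 fold change of -0.24. The table as a whole had 35.2% called higher, 52.8% called lower and a median of -0.14. CSF1, a cytokine for macrophages, had 8.43, 8.11 and 8.71 TPM with vehicle against 14.7, 13.5 and 16.7 TPM with SSD, a log2 fold change of 0.63 (standard error 0.0869), close to that of MAP3K6. VEGFA, an angiogenic growth factor, was at 0.21 (standard error 0.0449). In IGF1 the counts were lower, whereas the mean TPM was 3.87 ± 1.10 with vehicle and 3.88 ± 2.09 with SSD (SD, n = 3 each), with overlapping groups. The 6 called lower ranged from IGF1 at -0.69 (standard error 0.201) to MAX, the partner of Myc, at -0.11 (standard error 0.0473), with CACNB1, CACNG8, NFKB2 and RAC3 between -0.28 and -0.24. TMM and both DESeq2 alternatives lost the calls of these lower genes other than IGF1, and adjustment over 20000 genes lost all 6. Of 15 alternatives, the call of MAX held under 3, CACNG8 under 5, CACNB1 under 9, RAC3 under 10 and NFKB2 under 11, and that of IGF1 held under 11 of 14. FLNA was the gene not called, at -0.11.

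**Figure D4:**
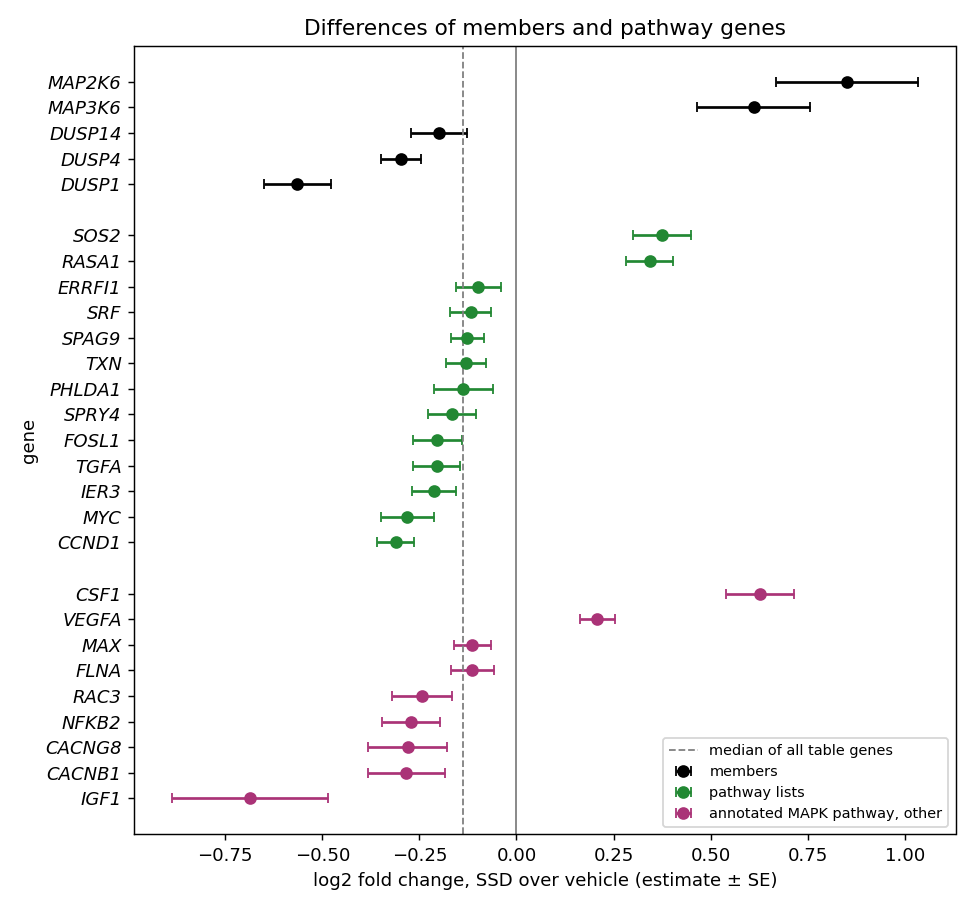
Log2 fold change of SSD over vehicle with its standard error (horizontal axis) for the members, the 13 pathway genes and the 9 further genes annotated to the pathway. MAP2K6, CSF1 and MAP3K6 lie farthest to the right, while DUSP14 and most listed genes lie near the dashed median of all table genes at -0.14.

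Over the 6 libraries, the 3 table genes whose log2(TPM + 1) followed each member most closely were named by Pearson's r, as a description. All points share the same vehicle and SSD groups and every table gene was chosen for differing between them, so that high values are built in. For DUSP4 they were CCND1 (r = 0.995), ASS1 (r = 0.995) and VIL1 (r = 0.990). For DUSP1 they were EIF2S1 (r = 0.997), PPA1 (r = 0.996) and PFKFB3 (r = 0.993), and for DUSP14 KDM4C (r = 0.997), LRRFIP1 (r = 0.994) and RBBP4 (r = 0.985). MAP2K6 was followed by FOXC1 (r = 0.997), AGGF1 (r = 0.997) and JMY (r = 0.989). MAP3K6 was followed by NIN (r = 0.987), IRF2 (r = 0.952) and ARAP2 (r = 0.951). Above an r of 0.95 there were 60 genes for DUSP1, 56 for DUSP4, 44 for MAP2K6, 18 for DUSP14 and 4 for MAP3K6. Between the members, r was 0.934 for DUSP4 with DUSP1 and 0.725 for MAP2K6 with MAP3K6.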

How the data were processed

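RNA-seq libraries of AGS cells, 3 vehicle and 3 SSD, were grouped by their titles, and columns were matched to them by control or compound code and replicate number. The deposited estimated counts are the authors' expected reads per gene (33.5% of values not whole). The deposited TPM values are the authors' length-corrected shares of a whole library, since the rows sum to 30.1% to 33.1% of the full total. The build is GRCh38.p13 per the labels, and the aligner and counting program are not given in the sources used here. Group means, fold changes, p-values and calls of the authors' own comparison were not used, other than to check that all 1099 p-values were under 0.05.

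Counts were rounded and tested with edgeR 4.0.16 (R 4.3.3, quasi-likelihood test) after a mean of at least 10 counts was required, which kept all genes. Because TMM is not neutral in a table chosen for change, the library scale was the median over genes of counts divided by TPM, from 0.874 to 1.29. Adjustment was Benjamini-Hochberg, over 1099 genes. The fit was tested on simulated data. Limma 3.58.1 and DESeq2 1.42.0 served as alternatives. Named genes were all members, all listed pathway genes with a row, and for each member the 3 table genes with the highest Pearson's r; the annotated pathway was added after the table was seen. Members and lists were chosen with earlier results of these data known. Gene models came from GENCODE release 29 and promoters from RefSeq.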

Additional observations from a re-analysis of the deposited data

How the results depend on the processing

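Values were recomputed under 15 alternatives, including 6 fits with 1 library left out, except that IGF1 had 14, being removed by the minimum of 100 counts. No member and no other named gene changed direction under those it was run in. MAP2K6, DUSP1 and DUSP4 were called under all 15, MAP3K6 under 14 and DUSP14 under 7. Table genes called higher numbered 337 with adjustment over 20000 genes, 359 with limma and 386 or 387 under every other setting. Being called under most settings thus does not set the kinase genes apart from other higher genes. The count of 2 members called higher was 1 with adjustment over 20000 genes, where MAP3K6 was lost. The 580 table genes called lower were 286 with TMM, 232 with DESeq2's size factors, 215 with the DESeq2 Wald test and 162 with adjustment over 20000 genes. Higher genes were 40.0% of the calls, but 57.5% with TMM, 62.5% with DESeq2's size factors and 64.3% with the Wald test, and TMM moved the median log2 fold change by 0.07. DUSP14 lost its call with these 3, at log2 fold changes of -0.13, -0.11 and -0.11, and with the wider adjustment. With a library left out, 391 to 624 table genes were called lower and 387 higher each time.

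With the replicate number as a block, 387 table genes were called higher and 517 lower, and 2 members were called higher and 2 lower, DUSP14 being lost at -0.20. Same-numbered libraries did not deviate together (r over genes of -0.057, 0.023 and 0.024), and differently numbered ones ranged from -0.122 to 0.110. With 3 libraries per group these values cannot tell whether same-numbered libraries were handled together. The table holds no gene that the authors' comparison left out, so that the members cannot be set against genes of the family that did not differ. MAP3K6 and MAP2K6 rest on means of 143 and 172 counts per library.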

Other observations

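Counts and TPM gave unequal differences for MAP3K6 and IGF1, 2 genes chosen here after their values were seen. They were not the only such genes. The log2 ratio of mean TPM was 0.83 for CSF1 and 0.76 for MAP2K6, against 0.63 and 0.85 from the counts. The ratio of counts to TPM, divided by the library scale, reflects the length that the authors' counting assigned to a gene in a library. Relative to its vehicle mean this length was 0.94, 0.97 and 1.09 for MAP3K6 under vehicle and 0.86, 0.98 and 0.80 under SSD, with overlap. The log2 ratio of its mean TPM was 0.79, against 0.61 from the counts. For IGF1, a growth factor, the relative length was 1.13, 1.09 and 0.79 under vehicle and 0.82, 0.64 and 0.50 under SSD. IGF1 had 93.5, 148 and 127 counts under vehicle and 55.6, 51.1 and 81.5 under SSD, whereas its TPM was 3.87 ± 1.10 and 3.88 ± 2.09 (SD, n = 3 each). Its log2 fold change was thus -0.69 from the counts and 0.01 from the mean TPM. In DUSP1, DUSP4 and DUSP14 the relative length stayed between 0.996 and 1.01 in all 6 libraries. Transcripts were not analysed here, and the cause was not tested.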
